A study of Mus musculus with 2 samples.

Results

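The cells described here are cycling mesenchymal cells of the mouse fetal pancreas at embryonic day E15.5, found by a rule on their UMI counts (a UMI marks 1 captured RNA molecule). For each cell, the UMIs of 9 proliferation genes (Aurkb, Birc5, Ccnb1, Cdk1, Cenpf, Mki67, Top2a, Tpx2 and Ube2c) were summed per 10000 UMIs of the cell, a sum called the proliferation sum below. A cell was kept with a proliferation sum of 2 or more, with Col1a1 and Col3a1 together at 20 or more per 10000, with no Epcam UMI, with fewer than 3 UMIs over the mesothelial genes Upk3b, Upk1b, Msln and Lrrn4, with Ctrb1 below 100, with Gcg below 200 and with Ins1 and Ins2 together below 200 per 10000. The rule kept 715 of 10008 cells, 516 of 6384 in the WT library and 199 of 3624 in the Mettl3pKO library. The WT library came from wild-type pancreata, and the Mettl3pKO library from pancreata of transgenic mice in which Pdx1+ pancreatic progenitors lack Mettl3, the catalytic subunit of the m6A RNA methyltransferase; the sources used here give neither the number of embryos per library nor the Cre line. There was 1 library per genotype, so no difference below has a replicate check, and each interval covers counting error only. Mesenchymal cells that met every condition except the proliferation sum are called non-cycling, 659 in WT and 62 in Mettl3pKO.

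Pancreatic mesenchyme is the stroma around the growing epithelial buds, and it lays down collagen-rich matrix and sends growth factors such as Fgf10 that sustain epithelial progenitors. A dividing cell copies its DNA in S phase with replication enzymes such as the Mcm helicase, and then builds a spindle and divides in G2 and M phase with kinesins, kinetochore proteins and cyclins of the A and B types. Transcription of the first group is driven largely by E2F factors, and that of the second largely by the MuvB complex with Foxm1 and B-Myb. This complex acts through the cell cycle genes homology region (CHR) of the promoters, which often also hold CCAAT boxes.

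Markers that the rule did not use were those of mesenchyme. Pdgfra, the PDGF receptor of mesenchymal cells, had a UMI in 88.2% of the WT members (455 of 516) and 92.5% of the Mettl3pKO members (184 of 199), against 1.90% and 2.84% of cycling Epcam+ cells, which are the proliferating epithelial cells of the same libraries. Col1a2, a second chain of type I collagen, and Vim, the intermediate filament of mesenchyme, had a UMI in every member of both libraries. In cycling Epcam+ cells, Col1a2 had a UMI in 33.3% of WT and 43.6% of Mettl3pKO cells, and Vim in 50.9% and 37.2%. A UMI of either gene was thus not particular to the members. Cdh1, the adhesion protein of epithelia, had one in 5.81% of WT and 7.04% of Mettl3pKO members, against 95.1% and 98.1% of cycling Epcam+ cells. The members thus carried mesenchymal transcripts, and their epithelial transcripts were at a low level. Opposite conditions on Epcam and on Col1a1 and Col3a1 chose the members and the cycling Epcam+ cells. The contrasts between these sets therefore follow in part from that choice. Among the splanchnic transcription factors, Tcf21 had a UMI in 49.0% of WT and 70.9% of Mettl3pKO members, Barx1 in 34.7% of WT and 33.7% of Mettl3pKO members, and Isl1 in 30.0% and 37.2%. Tlx1, which spleen mesenchyme needs, had one in 13.0% and 19.1%, and Nkx2-5, another factor of spleen and stomach mesenchyme, in 3.68% and 1.01%. Nothing in the rule separates pancreatic mesenchyme from that of neighbouring organs. With each cell thinned to 7000 UMIs, to remove the difference in depth, the shares were 39.4% and 48.7% for Tcf21, 9% and 12.1% for Tlx1, 23.8% and 23.1% for Isl1, and 27.6% and 27.1% for Barx1. In cycling Epcam+ cells, unthinned, Tcf21 and Tlx1 were each below 1% in both libraries. Barx1 had a UMI there in 0.632% of WT and 1.09% of Mettl3pKO cells, and Isl1 in 8.58% and 6.38%.

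The values that chose the members spread over a wide range. The proliferation sum had a lowest value of 2.01, a median of 21.8 and a highest value of 153 per 10000 in the WT members, and 2.00, 41.8 and 148 in the Mettl3pKO members. Top2a, the DNA topoisomerase of dividing cells and the label's own marker, had a UMI in 76.2% of the WT members and 89.5% of the Mettl3pKO members; Cdk1, the mitotic kinase, had one in 80.8% and 94.97%, and Ccnb1, its cyclin, in 44.6% and 58.3%. Just inside the threshold, 114 WT members (22.1%) and 20 Mettl3pKO members (10.1%) had sums from 2 to 3. Just outside it, 223 WT and 27 Mettl3pKO mesenchymal cells had sums from 1 to 2. In WT, 95 members were kept on exactly 2 UMIs over the 9 genes, and in Mettl3pKO none were, since a cell of the depth of that library needs 3. Col1a1 and Col3a1 together had a median of 168 per 10000 in the WT members (lowest 23.2, highest 647) and 152.5 in the Mettl3pKO members (24.1 and 599). Most members therefore stood far above the collagen threshold, and many WT members stood close to the proliferation threshold.

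**Figure D1:**
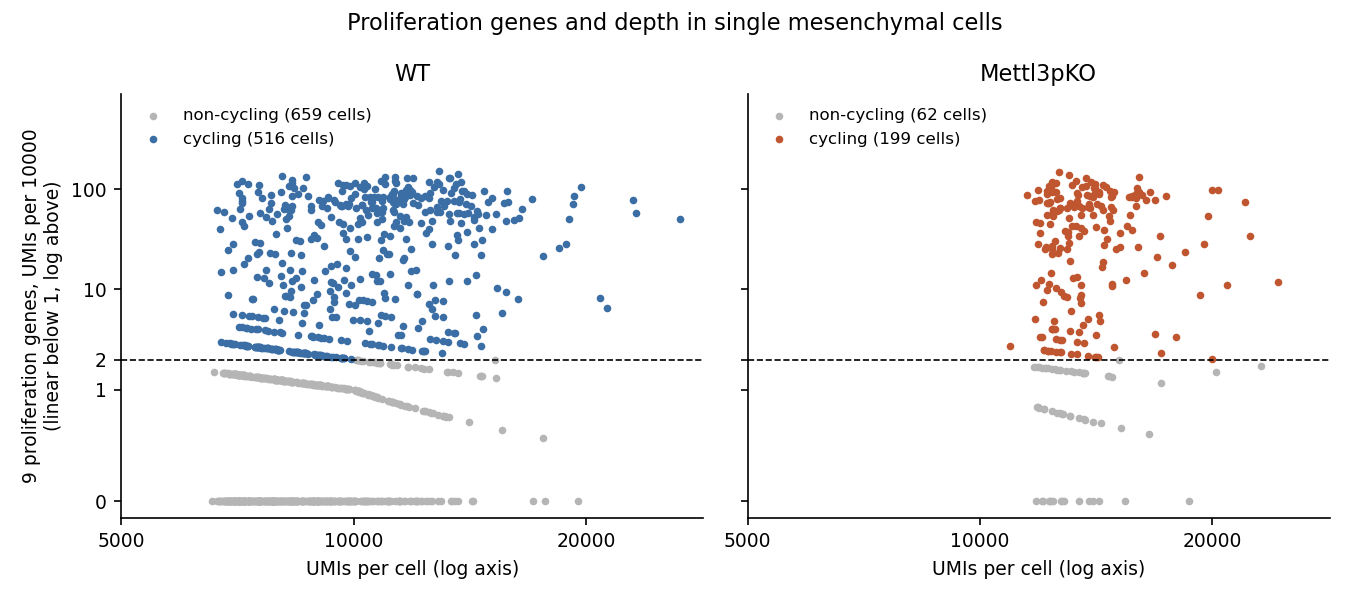
Each point is 1 mesenchymal cell of the WT (left) or Mettl3pKO (right) library, with its UMIs on the horizontal log axis and the proliferation sum per 10000 UMIs on the vertical axis, which is linear below 1 and logarithmic above. The dashed line is the threshold of 2; WT members start at 6647 UMIs and Mettl3pKO members at 10923, and the stripes near the threshold are cells with the same small number of UMIs over the 9 genes.

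The libraries differed in depth in these cells, and this bears on every comparison of the genotypes. Members had 6647 UMIs at the lowest, 9778 at the median and 26480 at the highest in WT, and 10923, 13429 and 24310 in Mettl3pKO; the medians of genes per cell were 3457 and 4244. Mitochondrial transcripts took a median of 5.10% and 5.08% of the UMIs. The Mettl3pKO table held no cell below 10719 UMIs, and the WT table none below 3803. Both tables run roughly from deep to shallow cells, with medians of 24936 UMIs over the first 500 cells and 7108 over the last 500 in WT, and 27931 and 12363 in Mettl3pKO, and both end inside a line. Shallower cells may thus be absent from the tables used here, at a different depth in each, and every share of cells below is a share of the cells held. The libraries also differed in the sex of their cells: Y-linked UMIs without Xist were found in 152 WT and 124 Mettl3pKO members, and Xist without Y-linked UMIs in 288 and 36. Over the whole series, 33 cell labels occurred in both libraries.

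Transcripts of other cell types were present at low levels in most members and at high levels in a few. All 17 immune markers had at least 1 UMI in the WT and in the Mettl3pKO members, but their summed level had a median of 0 per 10000 in both, with a highest value of 259 and 248. Ptprc, the pan-leukocyte antigen, had a UMI in 0.969% of WT and 2.01% of Mettl3pKO members, near the 1.21% and 1.23% of cycling Epcam+ cells. Of the 12 endothelial markers, all had a UMI in both sets of members, and their sum had medians of 1.77 and 1.69 and highest values of 45.4 and 43.3. Sox10, a transcription factor of neural crest glia, had a UMI in 0 of 516 WT and 0 of 199 Mettl3pKO members. The upper Clopper-Pearson bounds were 0.712% and 1.84%. In cycling Epcam+ cells, 8% and 1.28% had a Sox10 UMI. Of the 14 neural crest and glial markers, 9 had a UMI in WT members and 10 in Mettl3pKO members. Their sum had medians of 3.09 and 3.36 per 10000 in members, against 2.91 and 2.89 in non-cycling mesenchyme. In cycling Epcam+ cells the medians were 1.15 and 0.813. The sum over 11 erythroid genes, 9 of which had a UMI in WT members and 8 in Mettl3pKO members, reached a 95th percentile of 328 per 10000 in WT members and 598 in Mettl3pKO members, against 45.5 and 46.2 in non-cycling mesenchyme. A sum of 50 or more occurred in 6.01% of WT members (31 of 516) and 8.04% of Mettl3pKO members (16 of 199). In non-cycling mesenchyme it occurred in 4.70% of WT cells (31 of 659) and 4.84% of Mettl3pKO cells (3 of 62). The shares of such cells thus differed much less than the 95th percentiles, which fall near the edge of this small group of cells. The acinar sum had a median of 17.8 and a highest value of 127 in WT, and 18.6 and 523 in Mettl3pKO. It includes Ctrb1, which the rule kept below 100 per 10000. No doublet caller was run, so cells captured together with a red cell or an acinar cell may be among the members; the cycling share, the counts over all genes, the list medians and the named genes were also taken without cells that held transcripts of other types.

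Cycling cells were first set beside the non-cycling mesenchyme of the same library. Since the proliferation sum divides these groups, everything in this comparison is a description of what the rule selects. Levels are UMIs per 1000000 UMIs of all cells of a group (CPM), and a gene was taken as measured with at least 20 UMIs over both groups. In WT, 1189 of 12141 measured genes (9.79%) were at least 1.5-fold higher in the cycling cells, and 1029 (8.48%) were at least 1.5-fold lower. In Mettl3pKO, with 62 non-cycling cells, 1519 of 10431 (14.6%) were higher and 1287 (12.3%) lower. Of 10413 genes measured in both libraries, 681 were higher in both, which is 75.6% of the 901 in WT and 45.1% of the 1511 in Mettl3pKO. Another 267 were lower in both, which is 45.7% of the 584 in WT and 20.9% of the 1280 in Mettl3pKO. The higher genes were thus shared to a larger degree than the lower ones.

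The G2 and M phase genes outside the 9 of the rule separated the groups most. All 79 listed genes were measured and at least 1.5-fold higher in the cycling cells of both libraries, with a median log2 ratio of 4.94 in WT and 4.80 in Mettl3pKO, against -0.06 and -0.05 over all genes measured. Hmmr, a spindle protein (chr11:40701395-40733422, minus strand), had 199 CPM in cycling and 0.510 CPM in non-cycling WT cells, where it rested on 3 UMIs; the ratio was 390 with an interval from 133 to 1895. In Mettl3pKO it had 244 and 1.19 CPM. Nusap1, which bundles spindle microtubules, had 330 and 2.72 CPM in WT, a ratio of 121 (74.4 to 212.5), and 359 and 1.19 CPM in Mettl3pKO. Kif23, the kinesin of the central spindle, had 235 and 1.53 CPM in WT, a ratio of 153 (80.5 to 336), and 240 and 1.19 CPM in Mettl3pKO. These genes were nearly silent in the non-cycling mesenchyme of either library. Ccna2, the A-type cyclin, had 366 and 4.93 CPM in WT and 461 and 7.16 in Mettl3pKO, ratios of 74.2 (51.5 to 111) and 64.4. Ckap2l, a spindle pole protein, had 216.5 and 2.04 CPM in WT, a ratio of 106 (60.5 to 206), and 265 and 3.58 in Mettl3pKO. Kif2c, a microtubule depolymerase, had 70.9 CPM in the WT members and 81.0 in the Mettl3pKO members, and no UMI in the non-cycling cells, which allows up to 0.510 CPM in WT and 3.58 in Mettl3pKO. Foxm1, the transcription factor of these genes, had 42.9 and 2.04 CPM in WT, and 49.8 and 2.39 in Mettl3pKO.

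Promoter sequences are shown here because every gene of the G2 and M list was higher in both libraries. RefSeq promoters (GRCm38.p6, 250 bases before to 50 after the start) were searched on both strands for TTTGAA, the CHR core, for CCAAT, and for 4 E2F motifs, which were TTTGGCGC, then TTTCCCGC, then TTTCGCGC, and last TTTGCCGC. Of the 79 genes, 67 matched an entry, with 75 promoters, and 61.3% of these (46) held TTTGAA, against 17.9% of all 32851 promoters. CCAAT was in 70.7% of them (53), against 37.4% of all, and both motifs were in 49.3% (37), against 6.95%. An E2F motif was in 5 of the 75 (6.67%), against 2.26% of all. In the S phase list, 42 of 57 genes matched, with 50 promoters: 36% held an E2F motif (18), 14% held TTTGAA (7) and 58% held CCAAT (29). In the matrix list, 45 of 69 genes matched, with 55 promoters: 12.7% held TTTGAA, 38.2% held CCAAT and 1.82% held an E2F motif. Matches of different motifs shared bases in 0.158% of all promoters. A match is a string of letters and not a measured binding site. The first 3 promoters below belong to the genes with the highest WT ratios among those that hold both TTTGAA and CCAAT and have more than 3 UMIs in non-cycling cells; capitals mark these motifs or their reverse complements.
Kif23, chr9:61946750-61947049, minus strand: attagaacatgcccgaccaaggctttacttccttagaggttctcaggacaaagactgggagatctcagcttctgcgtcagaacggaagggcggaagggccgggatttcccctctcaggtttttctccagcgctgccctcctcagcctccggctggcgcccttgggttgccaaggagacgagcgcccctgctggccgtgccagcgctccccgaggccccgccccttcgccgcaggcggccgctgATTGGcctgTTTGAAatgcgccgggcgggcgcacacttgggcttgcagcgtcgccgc
Ckap2l, chr2:129297163-129297462, minus strand: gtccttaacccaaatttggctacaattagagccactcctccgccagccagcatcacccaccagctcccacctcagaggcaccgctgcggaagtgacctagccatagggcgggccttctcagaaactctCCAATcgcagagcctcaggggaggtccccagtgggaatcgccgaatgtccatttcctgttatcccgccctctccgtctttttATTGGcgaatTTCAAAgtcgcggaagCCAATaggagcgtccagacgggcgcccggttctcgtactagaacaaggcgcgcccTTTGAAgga
Ncapg, chr5:45669675-45669974, plus strand: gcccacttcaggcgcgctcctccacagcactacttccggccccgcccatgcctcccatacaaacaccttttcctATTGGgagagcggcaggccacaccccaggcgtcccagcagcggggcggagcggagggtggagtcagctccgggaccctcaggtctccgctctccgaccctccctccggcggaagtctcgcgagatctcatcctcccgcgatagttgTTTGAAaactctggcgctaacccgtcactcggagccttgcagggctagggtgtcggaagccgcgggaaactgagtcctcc
The other two belong to S phase genes, Clspn, a replication checkpoint adaptor, and Cdc6, which loads the Mcm helicase; there, capitals mark the E2F motif only, read on the reverse strand.
Clspn, chr4:126556730-126557029, plus strand: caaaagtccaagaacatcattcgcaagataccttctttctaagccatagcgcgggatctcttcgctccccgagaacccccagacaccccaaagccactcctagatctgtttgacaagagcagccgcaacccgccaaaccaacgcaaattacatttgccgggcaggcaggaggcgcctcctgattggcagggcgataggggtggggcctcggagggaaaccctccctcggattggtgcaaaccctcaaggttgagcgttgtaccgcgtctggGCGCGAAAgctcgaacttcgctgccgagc
Cdc6, chr11:98907901-98908200, plus strand: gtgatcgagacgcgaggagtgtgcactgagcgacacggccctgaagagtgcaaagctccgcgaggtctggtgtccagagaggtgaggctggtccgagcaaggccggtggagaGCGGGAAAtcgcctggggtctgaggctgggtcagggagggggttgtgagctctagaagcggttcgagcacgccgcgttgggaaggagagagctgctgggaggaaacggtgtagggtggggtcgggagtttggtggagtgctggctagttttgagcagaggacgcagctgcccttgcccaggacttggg

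The S phase genes differed less between the groups than the G2 and M genes. Of 57 listed, 49 in WT and 48 in Mettl3pKO were at least 1.5-fold higher in the cycling cells and none was lower, with medians of 1.11 and 1.16 on the log2 scale. Over all genes, 9.79% and 14.6% were higher. E2f8, an E2F family repressor, had 77.2 and 1.87 CPM in cycling and non-cycling WT cells, a ratio of 41.3 (22.8 to 83.4), and 105 and 8.36 in Mettl3pKO. Rrm2, the ribonucleotide reductase subunit that makes DNA precursors, had 160 and 12.4 CPM in WT, a ratio of 12.9 (10.2 to 16.7), and 210 and 8.36 in Mettl3pKO. Both genes peak in S phase, and both were low in the non-cycling cells. Pcna, the sliding clamp of DNA polymerase, had 276 and 113 CPM in WT, a ratio of 2.44 (2.23 to 2.68), and 362 and 148 in Mettl3pKO. Mcm6, a helicase subunit, had 181 and 178 CPM in WT, a ratio of 1.02 (0.930 to 1.11), and 210 and 223 in Mettl3pKO. The level of Mcm6 thus did not separate the members, which were selected on the proliferation sum, from the rest. This did not hold for every helicase subunit. Mcm5, another subunit, had 82.4 CPM in non-cycling WT cells and 256.9 CPM in WT members with sums of 5 to 20. In WT members with sums of 60 or more, Mcm5 had 94.75 CPM.

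Single genes of the step before S phase went in both directions. Of 35 measured G1 regulators, 10 were at least 1.5-fold higher and 3 lower in the cycling cells of WT, and 8 and 1 of 34 in Mettl3pKO. Over all genes, 9.79% were higher and 8.48% lower in WT, and 14.6% and 12.3% in Mettl3pKO. The count of lower regulators in WT was near that share, and the genes below are given for their own values. Cdkn2c, the CDK inhibitor p18, had 62.3 and 2.38 CPM in WT, a ratio of 26.2 (15.4 to 48.4), and 76.0 and 1.19 in Mettl3pKO. E2f2, an E2F activator, had 29.3 and 2.21 CPM in WT, a ratio of 13.3 (7.53 to 25.4). Ccnd2, a D-type cyclin that starts the cycle, went the other way, with 493 and 761 CPM in WT, a ratio of 0.647, and the others past the fold in that direction were the forkhead factors Foxo1 and Foxo3, at 0.585 and 0.627. Cdkn1c, the CDK inhibitor p57, was at a high level in both groups, with 5262 and 5016 CPM in WT, a ratio of 1.05 (1.03 to 1.07), and 4961 and 5421 in Mettl3pKO. Histone cluster genes, most of which are copied into RNA in S phase, were higher for 10 of 11 measured in WT and 7 of 8 in Mettl3pKO, of 46 listed. Hist1h2ae had 35.1 and 1.87 CPM in WT and 52.0 and 3.58 in Mettl3pKO. Their summed level was highest in WT members with proliferation sums of 60 or more, at 310 CPM. In Mettl3pKO it was highest at sums of 20 to 60, at 305 CPM. The summed S phase list was highest at sums of 5 to 20 in both libraries.

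The 12 named genes lowest in the cycling cells had ratios much closer to 1, and they were of mixed function. Ogn (osteoglycin, a small proteoglycan; chr13:49608046-49624501, plus strand) had 240 CPM in cycling and 525 CPM in non-cycling WT cells, a ratio of 0.457 (0.428 to 0.488), and 196 and 640 CPM in Mettl3pKO, a ratio of 0.306. Col5a3, a chain of type V collagen, had 211 and 361.5 CPM in WT, a ratio of 0.583, and a ratio of 0.481 in Mettl3pKO. Aspn, another small proteoglycan, had 144 and 239 CPM in WT, a ratio of 0.602, and a ratio of 0.501 in Mettl3pKO. Igfbp5, which binds insulin-like growth factors, had 428 and 713 CPM in WT, a ratio of 0.601, and a ratio of 0.792 in Mettl3pKO. Kdm5b, a histone demethylase, had 162 CPM in non-cycling and 83.4 CPM in cycling WT cells, a ratio of 0.515, and Aldoa, a glycolytic enzyme, had a ratio of 0.614. Arhgap29 and the microtubule protein Map1b had ratios of 0.561 and 0.587, and the others were Anpep, Sema3d, Col27a1 and Fgf10. All 24 genes named for this comparison, the 12 highest and the 12 lowest in WT, had the same direction in Mettl3pKO. Over the 67 measured matrix genes, 53 were below 1 in WT with a median of -0.22 on the log2 scale, and 45 were below 1 in Mettl3pKO with a median of -0.15; those at least 1.5-fold lower were Ogn and Col5a3 in WT, and 8 genes including both in Mettl3pKO. Timp1, an inhibitor of matrix proteases, was 1.51-fold higher in WT and 1.98-fold in Mettl3pKO. The share of matrix genes at least 1.5-fold lower in WT, 2 of 67, was below the 8.48% over all genes. In Mettl3pKO that share, 8 of 67, was near the 12.3% over all genes.

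Of the signals sent by mesenchyme, 11 of 40 were at least 1.5-fold lower in the cycling cells of WT, where 8.48% of all genes were, and 1 was higher (Aldh1a1, a retinoic acid enzyme). In Mettl3pKO, 7 of 36 were lower, against 12.3% of all genes, and 3 were higher (Hgf, Rspo1 and Cyp26b1), against 14.6%. Fgf10, the growth factor that maintains pancreatic progenitors (chr13:118669791-118792115, plus strand), had 84.5 CPM in cycling and 144 CPM in non-cycling WT cells, a ratio of 0.588 (0.524 to 0.660), and 78.8 and 103 CPM in Mettl3pKO, a ratio of 0.768 (0.596 to 0.997). Fgf18, another growth factor of the family, had 27.0 and 52.0 CPM in WT, a ratio of 0.520, and 25.4 and 47.8 in Mettl3pKO, a ratio of 0.533. Grem1, an inhibitor of BMP signals, had 4.48 and 15.98 CPM in WT, a ratio of 0.280 (0.171 to 0.442). Igf1 had 524 and 791 CPM in WT, a ratio of 0.662, and 573 and 717 in Mettl3pKO, a ratio of 0.799. Wnt5a, a non-canonical Wnt ligand, had 143 and 151 CPM in WT and 174 and 171 in Mettl3pKO, so the list did not move as one. Of the 11 measured hedgehog response genes, 10 were below 1 in WT, with a median of -0.31, where 6910 of all 12141 genes were below 1. At least 1.5-fold lower were 2 of the 11, among them Sufu, an inhibitor of the pathway. It had 19.4 and 30.1 CPM, a ratio of 0.645. In Mettl3pKO, 6 of 10 were below 1, with a median of -0.22, and none passed the fold.

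Transcription factors of the mesenchyme were mostly at like levels in both groups, with 3 of 27 at least 1.5-fold higher and 2 lower in WT. Both counts were near the shares over all genes, 9.79% higher and 8.48% lower. Beside Pbx3, the higher ones were Tlx1 at 1.81 and Nkx2-5 at 1.83, and Hand1 and Hoxc6 were lower at under 3 CPM. Pbx3, a TALE homeodomain factor (chr2:34171457-34373142, minus strand), had 80.6 and 26.9 CPM in cycling and non-cycling WT cells, a ratio of 2.999 (2.49 to 3.62), and 88.1 and 27.5 CPM in Mettl3pKO, a ratio of 3.21 (2.09 to 5.16). Barx1, a stomach and splanchnic factor, had 68.3 and 60.5 CPM in WT, a ratio of 1.13 (0.972 to 1.31). Isl1, another splanchnic factor, had 48.5 and 46.9 CPM in WT and 45.2 and 75.2 in Mettl3pKO, ratios of 1.03 and 0.600. Thy1, a surface antigen of fibroblasts, had 144 and 75.3 CPM in WT, a ratio of 1.92 (1.70 to 2.16), and was the 1 of 19 identity genes past the fold; its ratio in Mettl3pKO was 1.14.

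The cycling cells were not uniform, and their genes followed the proliferation sum in different ways. Sums of 2 to 5, 5 to 20, 20 to 60 and 60 or more per 10000 held 157, 96, 108 and 155 WT members (30.4%, 18.6%, 20.9% and 30.0%) and 37, 31, 48 and 83 Mettl3pKO members (18.6%, 15.6%, 24.1% and 41.7%). The summed S phase list was 2467 CPM in non-cycling WT cells and 3675, 7331, 7075 and 4796 CPM across the ranges, and 3073, 6148, 9336, 9252 and 4843 CPM in Mettl3pKO. It was thus highest in the middle ranges of both libraries. The summed G2 and M list went from 1922 CPM in non-cycling WT cells to 2478, 5231, 15621 and 28589 CPM, and from 2150 to 3130, 5831, 13461 and 28011 CPM in Mettl3pKO, and so was highest in the last range. Ccne2, the E-type cyclin of the start of S phase, had 13.3 CPM in non-cycling WT cells and 36.9, 112, 99.2 and 33.1 CPM across the ranges. Cdc20, which activates the anaphase promoting complex, had 2.89 CPM and then 3.48, 24.6, 122 and 355 CPM. The 9 genes of the sum are themselves mostly genes of G2 and M phase, so the order of the late list and of Cdc20 along it follows from how the members were ranked, and nothing is read from it.

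The matrix list had the reverse order. Its sum was 50212 CPM in non-cycling WT cells and 45413, 44445, 39222 and 36286 CPM across the ranges, and 48588, 47897, 42301, 40682 and 36094 CPM in Mettl3pKO. Ogn had 525 CPM in non-cycling WT cells and 419, 350, 134 and 104 CPM across the ranges. Not every stromal gene followed: Pdgfra had 365, 337, 345, 243 and 396 CPM in WT, and 316, 366.5, 320, 273 and 418 CPM in Mettl3pKO, lowest among the members at sums of 20 to 60 in both. Ccnd1, the D-type cyclin, had 262, 260, 345, 167 and 78.5 CPM in WT and 300, 332, 393, 306.5 and 114 CPM in Mettl3pKO, with its highest level at sums of 5 to 20 in both. As CPM divides by all UMIs of a cell, the large gain of the G2 and M list alone takes room from the others, and this share was not removed.

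**Figure D2:**
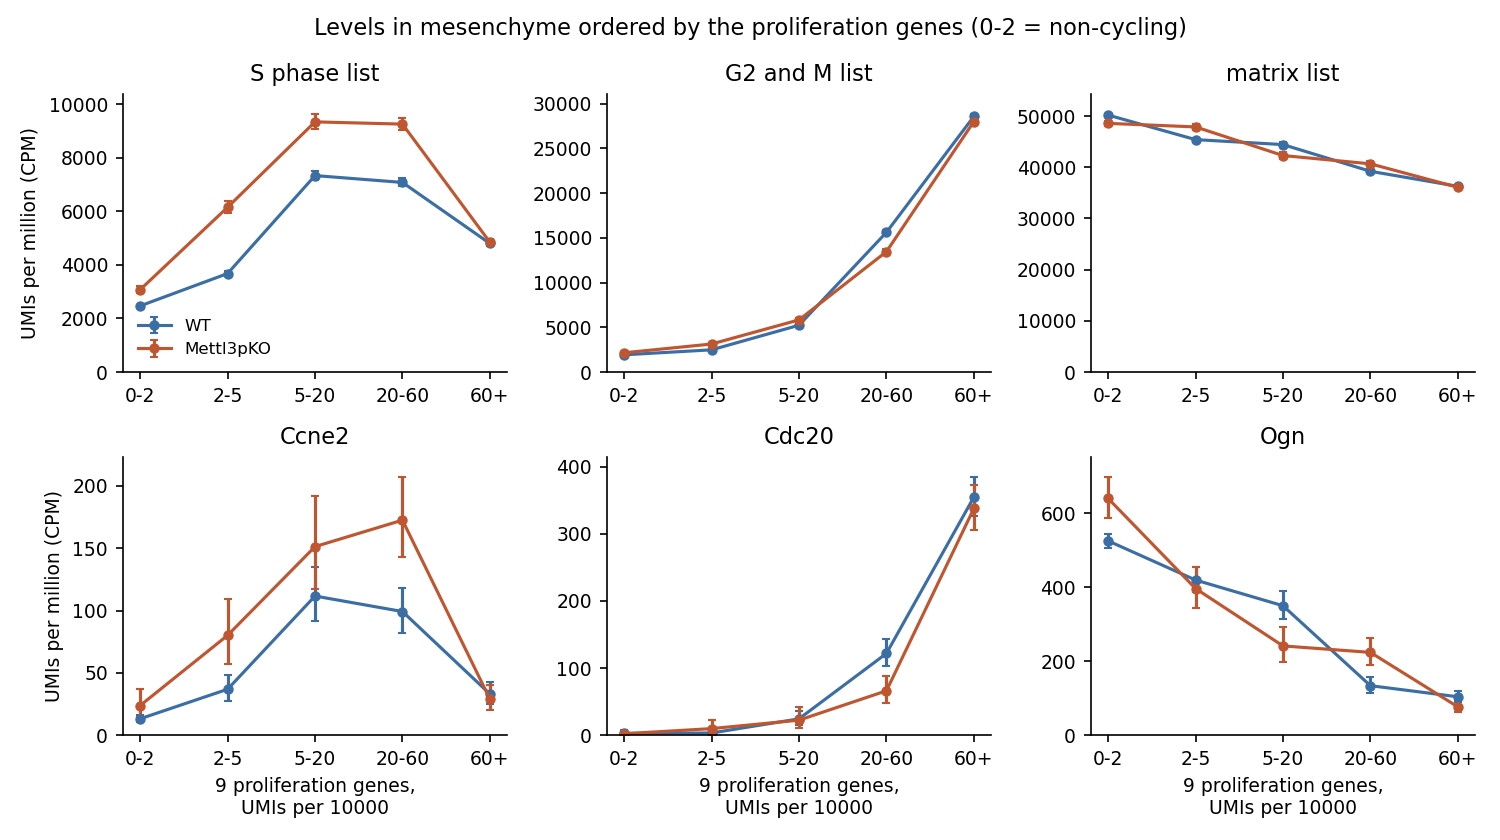
Level in CPM (vertical axis, with 95% Poisson intervals) of 3 summed gene lists and 3 single genes over mesenchymal cells in 5 ranges of the proliferation sum (horizontal axis, UMIs per 10000; 0-2 is non-cycling) in WT (blue) and Mettl3pKO (orange). The S phase list and Ccne2 are highest at sums of 5 to 60, the G2 and M list and Cdc20 at 60 or more, and the matrix list and Ogn go down.

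When each cell was thinned to 7000 UMIs, which left out 16 WT members and no Mettl3pKO member, the S phase list exceeded the G2 and M list in 34.8% of 500 WT members (30.6% to 39.2%) and in 36.7% of 199 Mettl3pKO members (30.0% to 43.8%). The G2 and M list exceeded the S phase list in 62.8% and 62.3%. These shares differed by less than their counting intervals. The balance between the phases was close to even for 70 WT and 16 Mettl3pKO members, whose list sums lay within 5 UMIs of each other. The shares describe a score and not a count of cells in each phase, since the lists differ in size and level. The lists' own levels differed, with a median of 32.5 S phase UMIs in WT and 52 in Mettl3pKO members, and 65.5 and 106 G2 and M UMIs.

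The first comparison of the genotypes concerns how much of the mesenchyme was cycling. In WT, 516 of 1175 mesenchymal cells were cycling (43.9%, 41.1% to 46.8%), and in Mettl3pKO 199 of 261 (76.2%), a ratio of 1.74 (1.47 to 2.05). Inside the WT library, this share was higher in deeper cells, at 29.6% of cells below 8000 UMIs (110 of 372), 42.6% from 8000 to 11000 (227 of 533), 58.9% from 11000 to 13000 (93 of 158) and 75.8% from 13000 to 16000 (69 of 91). In cells of 11000 UMIs or more, it was 66.3% in WT (179 of 270) and 76.2% in Mettl3pKO (198 of 260), a ratio of 1.15 (0.934 to 1.41). Among cells with at least 13000 UMIs, it was 76.8% (86 of 112) and 81.0% (124 of 153), a ratio of 1.05 (0.795 to 1.41). At like depth, the interval of the ratio therefore included 1. Thinning every cell to 7000 UMIs left shares of 42.9% and 75.2%, but thinning equalises detection and does not restore the shallow cells that the Mettl3pKO table lacks. Cycling Epcam+ cells made up 44.4% of Epcam+ cells in WT and 71.3% in Mettl3pKO, a ratio of 1.61 (1.51 to 1.71). The share over all cells held thus moved the same way in epithelium. That ratio was not taken above a common floor of UMIs, and the Mettl3pKO table lacks shallow cells there too.

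**Figure D3:**
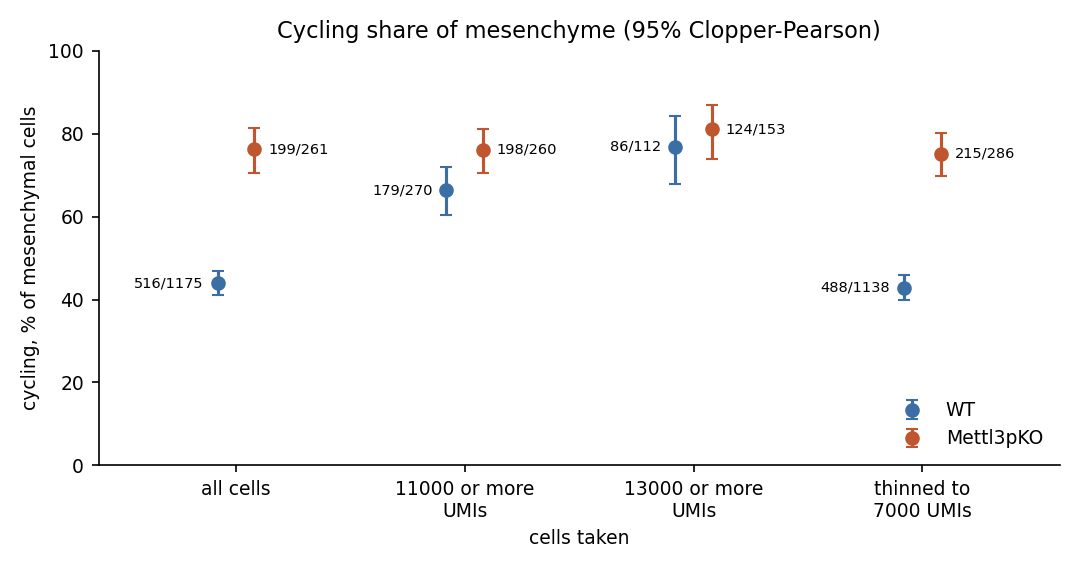
Share of mesenchymal cells that were cycling (vertical axis, %, with 95% Clopper-Pearson intervals) in WT (blue) and Mettl3pKO (orange), for all cells, for cells above 2 common floors of UMIs, and after thinning to 7000 UMIs. The labels give cycling over all mesenchymal cells; the points stand 43.9% against 76.2% for all cells and 76.8% against 81.0% at 13000 or more UMIs.

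As a share of all cells in the tables, cycling mesenchyme was 8.08% in WT and 5.49% in Mettl3pKO, a ratio of 0.679 (0.574 to 0.802). Above 11000 UMIs it was 5.80% and 5.47%, and above 13000 UMIs 3.96% and 4.06%, so this difference, too, was not seen at like depth. Within cells that carry Y-linked UMIs and no Xist, 40.3% of the WT and 72.9% of the Mettl3pKO mesenchyme was cycling, and within cells with Xist and no Y-linked UMI 45.2% and 78.3%.

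Expression was then compared between the cycling cells of Mettl3pKO and WT, with Mettl3 first. Mettl3 (chr14:52294841-52305128, minus strand) had 15.9 CPM in WT and 12.2 CPM in Mettl3pKO members, a ratio of 0.769 (0.5005 to 1.16). In cycling Epcam+ cells, where the deletion is labelled to be, it had 13.3 and 8.45 CPM, a ratio of 0.636 (0.548 to 0.737). Pdx1, which marks the cells in which Mettl3 was deleted, had 3 UMIs in the WT members and none in the Mettl3pKO members, which allows up to 1.075 CPM, against 29.3 and 19.1 CPM in cycling Epcam+ cells. With each cell thinned to 7000 UMIs, the ratio in the members was 1.07. A difference of Mettl3 in the members was not detectable at this depth. The sources used here do not say whether the counted end of the transcript lies in the deleted part.

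Most genes were within 1.5-fold between the cycling cells of the genotypes. Of 11659 genes measured, 565 (4.85%) were at least 1.5-fold higher in Mettl3pKO and 627 (5.38%) at least 1.5-fold lower, with a median log2 ratio of 0.02. A gene of few UMIs can pass this fold through counting error alone, so the counts are no number of changed genes. Among genes of 100 CPM or more, the rule for naming took the 12 highest and the 12 lowest by the interval bound nearest 1. Mgp, the matrix Gla protein that inhibits calcification (chr6:136872435-136875823, minus strand), had 40.8 CPM in WT and 133 CPM in Mettl3pKO, a ratio of 3.25 (2.74 to 3.86), and the cell with the most held 22.8% and 10.3% of its UMIs. The Mgp ratio was 6.36 among cells with Y-linked UMIs and 0.9504 among cells with Xist. Acta2, smooth muscle actin (chr19:34241090-34255590, minus strand), had 147 and 248 CPM, a ratio of 1.69 (1.53 to 1.88); among cells with at least 13000 UMIs the Acta2 ratio was 0.948. Sox11, a transcription factor of embryonic mesenchyme and neurons (chr12:27334264-27342574, minus strand), had 85.6 and 139 CPM, a ratio of 1.63 (1.42 to 1.87), and ratios of 1.44 to 1.86 over 16 alternative settings. Its ratio was 2.22 in non-cycling mesenchyme and 2.40 in cycling Epcam+ cells, so it was higher in each of the 3 cell sets.

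The other genes at the high end had ratios between 1.40 and 1.503, apart from Cpa3; of them Cyr61 passed the 1.5-fold limit, and Zfp36, Socs3, Mcm5, Tk1, Fam111a, Gspt1 and Manf did not. Cyr61, a matrix-bound immediate early protein and target of YAP, had 268 and 403 CPM in WT and Mettl3pKO members, a ratio of 1.503 (1.39 to 1.63), and 1.72 in non-cycling mesenchyme. Zfp36, which speeds the decay of AU-rich RNAs, had 400 and 560 CPM, a ratio of 1.40, and Socs3, an inhibitor of cytokine signalling, had 105 and 153 CPM, a ratio of 1.46. Mcm5, a helicase subunit, had 143 and 207 CPM, a ratio of 1.45 (1.30 to 1.61), with 1.43 in non-cycling mesenchyme but 0.800 in cycling Epcam+ cells. Tk1, thymidine kinase, had 134 and 194 CPM, a ratio of 1.44, and Fam111a, a protease at replication forks, had 155 and 222 CPM, a ratio of 1.43 with 0.590 in cycling Epcam+ cells. Gspt1, a translation release factor, had 108.5 and 161 CPM, and Manf, a protein of the endoplasmic reticulum stress response, had 159 and 225 CPM. Cpa3, the mast cell carboxypeptidase, had the highest ratio, 39.0, with 2.61 and 102 CPM, but 85.6% of its Mettl3pKO UMIs lay in 1 cell and it was seen in 7 of the 199 cells. Without cells that held 3 or more UMIs of other cell types the Cpa3 ratio was 0.772.

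The 12 genes at the low end had ratios between 0.638 and 0.763, of which Fat4, Col23a1 and Ntrk2 passed the 1.5-fold limit and the other 9 did not. Fat4, a giant cadherin of the Hippo and planar polarity pathways (chr3:38886940-39011985, plus strand), had 266 CPM in WT and 170 CPM in Mettl3pKO members, a ratio of 0.638 (0.574 to 0.709), with 0.566 in non-cycling mesenchyme and 0.557 to 0.781 over 16 alternative settings. Col23a1, a transmembrane collagen, had 173 and 112 CPM, a ratio of 0.647, with 0.505 in non-cycling mesenchyme. Ntrk2, the receptor of brain-derived neurotrophic factor, had 141 and 91.7 CPM, a ratio of 0.650, with 0.611. These genes were lower in cycling and non-cycling mesenchyme alike. Cd34, a sialomucin of stromal and vascular progenitors, had 520 and 365 CPM, a ratio of 0.702 (0.653 to 0.755), and Akap12, a kinase scaffold, had 1461 and 1093 CPM, a ratio of 0.748. Vgll3, a cofactor of TEAD factors, had 105.5 and 71.7 CPM, a ratio of 0.679, and Npr3, the clearance receptor of natriuretic peptides, had 185 and 130 CPM, a ratio of 0.704. Meg3, a maternally expressed long noncoding RNA (chr12:109541001-109571726, plus strand), had 2107.5 and 1608 CPM, a ratio of 0.763, with 0.667 in non-cycling mesenchyme and 0.533 in cycling Epcam+ cells. The lowest 12 also held Csrp2, Sned1, Plpp3 and Ahnak, at ratios of 0.686, 0.684, 0.712 and 0.731. Several ratios depended on the sex of the cells. Col23a1, Sned1, Plpp3, Npr3 and Meg3 had 0.481, 0.532, 0.5415, 0.591 and 0.668 among cells with Y-linked UMIs. Among cells with Xist, of which Mettl3pKO had 36 members, they had 0.869, 0.944, 0.908, 0.888 and 0.8905. Cd34, Ntrk2 and Csrp2 went the other way, with their lowest ratios, 0.532, 0.543 and 0.597, among cells with Xist. Of the 24 named genes, 23 had the same direction in non-cycling mesenchyme; the exception was Cpa3.

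**Figure D4:**
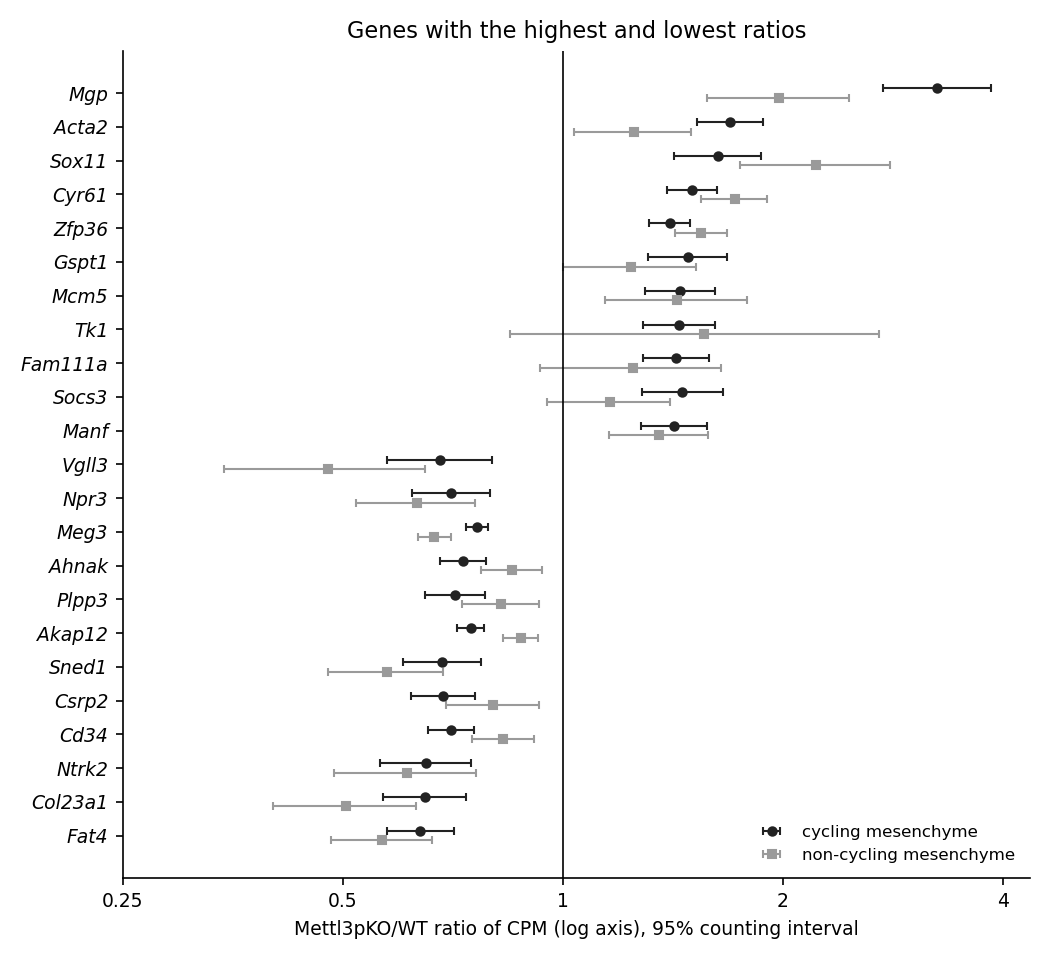
Ratio of CPM in Mettl3pKO to WT (horizontal log axis, 95% counting intervals) in cycling (black) and non-cycling (grey) mesenchyme, for the 23 named genes other than Cpa3, whose ratio of 39.0 lies off this range. The 11 upper genes lie above 1 and the 12 lower genes below 1 in both cell sets, and the intervals of the 62 non-cycling Mettl3pKO cells are wider.

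The cell cycle lists differed by less than the fold between the genotypes for nearly all members. Of 57 S phase genes, 54 were above 1 with a median log2 ratio of 0.30, against 0.02 over all genes; Mcm10, a replication initiation factor, had 34.9 and 55.2 CPM in WT and Mettl3pKO, a ratio of 1.58, and Cdc6 had 45.5 and 68.8 CPM, a ratio of 1.51, and these were the 2 past the fold, a share below the 4.85% over all genes. Of 79 G2 and M genes, 70 were above 1 with a median of 0.23, and 1 passed the fold, also below 4.85%; it was Cdca5, which protects sister chromatid cohesion, with 41.2 and 62.3 CPM. The genes of the rule moved likewise, and only as a description: Top2a had 1092 and 1432 CPM, a ratio of 1.31. With cells of at least 11000 UMIs in both libraries, the G2 and M median was -0.06 and the S phase median was 0.22. Among members with sums of 20 or more, they were -0.00064 and 0.15. The G2 and M difference was therefore not seen at like depth, while the S phase median was above 0 in each of the 17 alternative settings. In the summed S phase list, Mettl3pKO and WT members of at least 11000 UMIs had 9336 and 8215 CPM at sums of 5 to 20, 9252 and 6838 CPM at sums of 20 to 60, and 4843 and 4365 CPM at 60 or more. In cycling Epcam+ cells, the S phase and G2 and M medians were -0.20 and -0.07; no test of the difference between the cell sets could be made with 1 library per genotype.

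Of 39 measured signals, 1 was at least 1.5-fold higher in Mettl3pKO and 4 lower, with a median of -0.02; over all genes, 4.85% were higher and 5.38% lower. The counts of signals and of receptors past the fold were near these shares, and the genes below are given for their own values. The higher one was Inhba, the activin A subunit (chr13:16011851-16031621, plus strand), with 9.70 CPM in WT and 37.6 CPM in Mettl3pKO members, a ratio of 3.88 (2.76 to 5.52), and 2.89 (1.89 to 4.33) in non-cycling mesenchyme. Tgfb2, another ligand of the TGF-beta family, had 49.4 and 32.3 CPM, a ratio of 0.653 (0.508 to 0.832), but 1.12 (0.852 to 1.46) in non-cycling mesenchyme. The other lower ones were Bmp2, Bmp5 and Sema3a, each below 25 CPM in both libraries. Fgf10 had 84.5 and 78.8 CPM, a ratio of 0.933 (0.791 to 1.10), and Igf1 had 524 and 573 CPM, a ratio of 1.09 (1.03 to 1.16). These growth factors thus differed by little between the libraries. Of 30 receptors, 2 were higher, and 1 lower, Fgfr2, at 1.43 against 3.36 CPM. Ednra, the endothelin A receptor (chr8:77663031-77724464, minus strand), had 33.6 and 66.6 CPM, a ratio of 1.99 (1.61 to 2.45), with 1.26 (0.883 to 1.77) in non-cycling mesenchyme. The other higher one was Kit, with 3.73 and 17.2 CPM, which like Cpa3 is a marker of mast cells. None of 10 hedgehog response genes passed the fold, and 7 were above 1, with a median of 0.37; Gli1, the pathway's target and effector, had 49.6 and 68.4 CPM, a ratio of 1.38 (1.14 to 1.67), and 1.58 (1.19 to 2.08) in non-cycling mesenchyme. Ptch1, the receptor and target, had 22.8 and 31.5 CPM, a ratio of 1.39 (1.04 to 1.84), and Gas1, a coreceptor, had 866 and 696 CPM, a ratio of 0.804.

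Identity and matrix genes were close between the genotypes. None of 19 identity genes passed the fold, and the median was -0.04. Over all genes, 4.85% were at least 1.5-fold higher and 5.38% lower. Of 25 transcription factors, 1 was higher and 2 lower, each at a low level: Gata4, a foregut factor, had 2.61 and 6.09 CPM, Nkx2-5 had 4.66 and 0.717 CPM, and Nr2f1, a nuclear receptor, had 12.7 and 8.24 CPM. Of 67 matrix genes, 1 was higher and 2 lower, with a median of -0.01. Col8a1, a chain of the short collagen VIII (chr16:57624258-57754737, minus strand), had 30.4 and 8.60 CPM in WT and Mettl3pKO members, a ratio of 0.283 (0.176 to 0.436), and 0.221 (0.0707 to 0.526) in non-cycling mesenchyme. Col11a1, a fibrillar collagen, had 51.1 and 79.5 CPM, a ratio of 1.56 (1.30 to 1.87). The other lower gene was Col23a1, described above, so the genes past the fold were 3 single collagens. Of 19 smooth muscle and pericyte genes, 3 were higher, against 4.85% of all genes, and none was lower. Beside Acta2, Tagln had 36.0 and 65.2 CPM, a ratio of 1.81 (1.47 to 2.23), and Myh11 had 3.36 and 5.73 CPM. The list's median of 0.12 was -0.09 among cells of at least 13000 UMIs.

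Among the remaining lists, 28 of 33 immediate early and stress genes, many of which respond to tissue dissociation, were above 1, with a median of 0.22. Of the 33, 6 were at least 1.5-fold higher, where 4.85% of all genes were. Egr3 had 8.21 and 22.2 CPM, a ratio of 2.71 (1.81 to 4.08) that was 0.694 (0.290 to 1.43) in non-cycling mesenchyme, Egr2 had 32.8 and 64.9 CPM, a ratio of 1.98, and Hspb1, a small heat shock protein, had 10.6 and 27.6 CPM, a ratio of 2.60. The more abundant Fos had 1120 and 1378 CPM, a ratio of 1.23, and Egr1 had 2335 and 2576 CPM, a ratio of 1.10. Handling of the samples and genotype cannot be told apart with 1 library each. Of 21 p53 targets, 4 were higher and none lower, against 4.85% of all genes higher, with a median of 0.13, and of 0.73 in cycling Epcam+ cells; Cdkn1a, the CDK inhibitor p21, had 12.9 and 20.8 CPM, a ratio of 1.61 (1.12 to 2.32), and the nuclease Aen had 8.39 and 16.8 CPM, a ratio of 2.01, and Bbc3 and Gdf15 stood below 9 CPM. Of 19 imprinted growth genes, 1 was lower, a share near the 5.38% over all genes. It was the noncoding Mirg, with 83.7 and 50.2 CPM. Of the 19, 15 were below 1, with a median of -0.14. None of 20 m6A writers, readers and erasers passed the fold, and the median was 0.02.

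**Figure D5:**
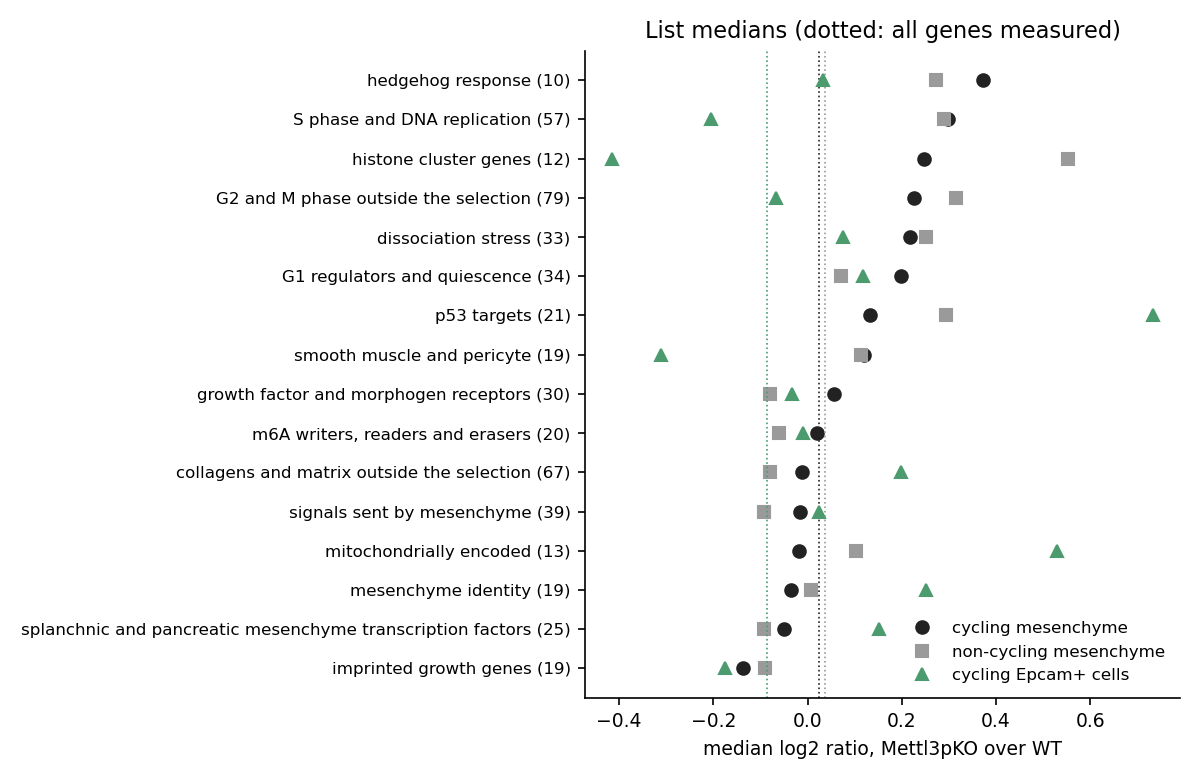
Median log2 ratio of Mettl3pKO to WT (horizontal axis) for 16 gene lists, in cycling mesenchyme (circles), non-cycling mesenchyme (squares) and cycling Epcam+ cells (triangles); the number of genes measured in cycling mesenchyme is in brackets, and dotted lines are the medians over all genes measured. The S phase list stands at 0.30 in cycling mesenchyme and at -0.20 in cycling Epcam+ cells, and the p53 targets at 0.13 and 0.73.

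Transcripts of other cell types differed between the libraries inside the members. Serpina6, a secreted protein that acinar cells make in abundance, had 15.7 CPM in WT and 165 CPM in Mettl3pKO members, a ratio of 10.5 (8.32 to 13.4), with a UMI in 13.8% of the WT and 71.4% of the deeper Mettl3pKO members. Of its Mettl3pKO UMIs, 33.5% lay in 1 cell. In cycling Epcam+ cells it had 1872 and 7407 CPM, a ratio of 3.96. Over all genes measured in the members, 4.85% were at least 1.5-fold higher and 5.38% lower, which are the shares to set beside the counts that follow. Of 17 acinar genes measured in the members, 6 were higher and 5 lower, among them Cpb1 with 32.1 and 7.52 CPM. Of 15 islet genes, none was higher and 9 were lower, with a median of -0.64. The rule capped Gcg, Ins1 and Ins2 of the islet list and Ctrb1 of the acinar list in every member. The acinar and islet counts are therefore given as a description. Of 15 immune genes, 8 were higher and 3 lower; the lower ones were Cd52 and the neutrophil genes S100a8, with 53.7 and 0.717 CPM, and S100a9, with 46.6 and 0.717 CPM. Of 9 endothelial genes, Cdh5, Flt1, Kdr and Plvap were higher and Esam lower, each below 16 CPM. Their part in the ratios of the other genes was not tested.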

How the data were processed

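Per the file headers, each deposited table holds UMI counts, whole numbers by cell and gene, from the BD Rhapsody whole-transcriptome pipeline, version 1.8, with a mouse STAR index; the authors deposited 1 table per library, unscaled. The submitters' processing notes name mm10 and Seurat. An incomplete last line was dropped from each table, and 22023 genes in both tables were used. The libraries held 80011421 UMIs (WT) and 65779771 UMIs (Mettl3pKO).

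UMIs were summed per library and cell set and divided by all UMIs of the set (CPM). With 1 library per genotype there was no test. Ratios carry exact conditional binomial, levels exact Poisson and shares Clopper-Pearson 95% intervals. A count of 0 allows up to 3 counts. Genes needed 20 UMIs over both sets; 1.5-fold was the limit for calling a gene higher or lower. Log2 ratios had 0.5 UMIs added. Named genes were Mettl3 and the 12 highest and 12 lowest ratios among genes of at least 100 CPM in either set and 50 UMIs over both, without the genes of the rule and mitochondrial, ribosomal protein, globin, sex-linked, acinar and islet genes. From each list, 2 to 4 members farthest from 1 were taken; others named, among them Barx1, Mcm6, Cdkn1c, Wnt5a, Foxm1, Fos, Egr1 and Kif2c, were chosen after their values were seen. Members, lists and tests were chosen with earlier results of these data known. Gene positions are GENCODE's on GRCm38, the sequence of mm10. The ratios were tested on simulated data. Alternatives covered depth, thresholds, scaling, sex, other cell types and the deepest cells. Python 3.11.15, numpy 2.4.6, scipy 1.17.1, pandas 2.3.3 and matplotlib 3.10.9 were used.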

Additional observations from a re-analysis of the deposited data

How the results depend on the processing

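The Mettl3pKO/WT ratio of the cycling share, 1.74, was 1.15 among cells of at least 11000 UMIs, 1.05 at 13000 or more and 1.38 with a proliferation sum of 1. Genes higher in Mettl3pKO members numbered 900 within cells with Y-linked UMIs, 991 within cells with Xist, 296 at a minimum of 50 UMIs and 180 at a fold of 2; genes lower numbered 1272 with Xist, 312 at 50 UMIs and 222 at a fold of 2. Between cycling and non-cycling cells, a fold of 2 left 652 genes higher and 249 lower in WT, and 811 and 378 in Mettl3pKO. With sums of 20 or more (chosen after seeing the data), 2091 were lower in WT; in Mettl3pKO, 852 were lower with Xist and 791 at 50 UMIs. Stricter minima and folds call fewer genes and smaller groups scatter more by construction; for the shares the cause was not tested.

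Of the named genes, Cpa3 went to 0.951 with a sum of 4, 0.772 without cells of other types, 0 with Xist and 0.399 with sums of 20 or more. Mettl3, whose interval included 1, went from 0.769 to 1.07 in cells thinned to 7000 UMIs, and in WT cycling over non-cycling cells from 0.914 to 1.11 at 13000 UMIs. Mgp went to 0.9504 with Xist and Acta2 to 0.948 at 13000 UMIs. Of 816 list medians under alternatives, 667 stayed within 0.1 of the main value, 139 moved further and 10 changed sign. For Mettl3pKO over WT these were smooth muscle, -0.085 at 13000 UMIs, and G2 and M, -0.062 at 11000 UMIs and -0.00064 with sums of 20 or more. Between cycling and non-cycling cells, receptors in WT were 0.0092 at 13000 UMIs. In Mettl3pKO, transcription factors were -0.024 with a sum of 1 and with 2 UMIs, hedgehog genes 0.068 at 13000 UMIs, and smooth muscle 0.0090 at 13000 UMIs and 0.14 with a sum of 1 and with 2 UMIs. The causes were not tested. No paired analysis was possible because each genotype had 1 library. Depth limits genes below 20 UMIs, which were not compared.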
